A study of Arabidopsis thaliana with 24 samples.

Results

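Expansins and xyloglucan endotransglucosylase/hydrolases (XTHs) are the families of cell wall proteins that loosen the primary wall, and 47 of their genes were described here out of the 34212 genes counted. They were taken by locus name and comprise 14 alpha-expansins, 2 beta-expansins, 3 expansin-like A genes and 28 XTHs. All plants, controls included, were homozygous for the pANT:XVE>>axr3-1-YFP transgene. In it the promoter of AINTEGUMENTA (ANT), a gene active in the cambium, drives an estradiol-dependent transcription factor. That factor induces axr3-1-YFP, a stabilized Aux/IAA protein that blocks auxin responses. Plants 9 d old were moved to 5 µM estradiol together with 1 µM of the cytokinin 6-benzylaminopurine (EST + BAP), to 5 µM estradiol alone (EST), to 1 µM 6-benzylaminopurine alone (BAP) or to the solvent (DMSO). Main root segments from 0.5 to 2 cm below the hypocotyl junction were collected after 24 h or, in a separate experiment, after 4 h. Each of the 8 groups had 3 libraries, 24 in all. No group without the transgene was included, so estradiol itself and axr3-1-YFP cannot be told apart. In whole segments fewer cells of a type cannot be told apart from less RNA per cell.

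Alpha- and beta-expansins let the wall of a growing cell yield at low pH without cutting its polymers, and the expansin-like A proteins share their fold but have no established loosening activity. XTHs cut xyloglucan, the polymer that coats cellulose microfibrils, and mostly rejoin the cut end to another xyloglucan chain, while a few members hydrolyse it. In roots these genes serve the growth of elongating cells, root hairs, lateral roots and the enlarging derivatives of the cambium.

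Levels are CPM, the counts of a gene divided by the TMM-scaled library size and put on a common scale over the 24 libraries, in the order of replicates 1, 2 and 3. Fold changes are log2 values with their standard errors, from edgeR's quasi-likelihood test on the 6 libraries compared. To be called higher or lower, a gene had to change by 0.5 or more on the log2 scale in either direction, with a p of 0.05 or less after Benjamini-Hochberg adjustment over all genes tested. Interactions were called on that p alone. The libraries held 14514022 to 45586679 counts, and the members took 0.256% to 0.526% of those on nuclear genes, ribosomal RNA aside. DMSO 24 h replicate 1 and BAP 24 h replicate 1 stood apart with 54.1% and 32.5% of their counts on ribosomal RNA, against at most 16.1% in the others. Between 41 and 43 members passed the low-count filter of a comparison. EXPA5 (AT3G29030), EXPA16 (AT3G55500), XTH6 (AT5G65730) and XTH25 (AT5G57550) passed it in none and stayed below 0.5 CPM in every library. EXPA7, EXPA18, EXLA1 and XTH15 overlap a gene on the other strand, and the sources used here do not say whether reads were assigned by strand. No member has a copy with at least 95% identity over 50% of its transcript, the closest pair being XTH17 and XTH18 with 90.8%.

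Sequence motifs are known for the transcription factors of both hormones. The 250 bases before each annotated gene start were therefore read from TAIR10.1 and searched on both strands for the auxin response elements TGTCTC and TGTCGG, the type-B response regulator motif AGATACG, the G-box CACGTG and the root hair element. TGTCTC was found in 5 of the 47 members (10.6%) and in 10.95% of the 27443 promoters of protein-coding genes. TGTCGG was found in EXPB3 and XTH20 (4.3% of the members, 4.16% of all promoters). AGATACG and CACGTG were found in no member and in 1.69% and 6.49% of all promoters. The root hair element was found in EXPA7 and EXPA18 and in 0.75% of all promoters. Since the element is known from root hair genes, and these 2 are such genes, its presence there is no independent result. Of the 5 members with TGTCTC, EXPA5, EXPA7 and XTH6 were called in none of the 8 comparisons between groups, EXPA5 and XTH6 being too rare to test. Shown here are 4 members with an auxin element, picked because they were called in several comparisons, and both root hair expansins. Capitals mark the element, which is on the other strand in EXPA6 and XTH20. In EXPA7 they mark the root hair element and, nearer the start, TGTCTC. The windows of EXPA6 (chr2:12433797-12434046, minus strand), EXPA10 (chr1:9259182-9259431, plus strand) and EXPB3 (chr4:14002125-14002374, minus strand) overlap no annotated gene. The same holds for XTH20 (chr5:19481647-19481896, plus strand) and EXPA7 (chr1:4276255-4276504, plus strand). That of EXPA18 (chr1:23331313-23331562, plus strand) runs into the neighbouring gene AT1G62978.
EXPA6: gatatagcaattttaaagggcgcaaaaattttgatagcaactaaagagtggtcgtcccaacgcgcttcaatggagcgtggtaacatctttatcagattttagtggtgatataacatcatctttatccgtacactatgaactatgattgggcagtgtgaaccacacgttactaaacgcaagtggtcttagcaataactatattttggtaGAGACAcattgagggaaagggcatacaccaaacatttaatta
EXPA10: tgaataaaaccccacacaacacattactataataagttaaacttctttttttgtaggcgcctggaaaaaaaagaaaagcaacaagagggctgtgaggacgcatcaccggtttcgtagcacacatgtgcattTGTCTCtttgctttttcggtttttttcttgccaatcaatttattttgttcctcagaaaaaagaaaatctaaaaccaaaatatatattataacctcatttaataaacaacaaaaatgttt
EXPB3: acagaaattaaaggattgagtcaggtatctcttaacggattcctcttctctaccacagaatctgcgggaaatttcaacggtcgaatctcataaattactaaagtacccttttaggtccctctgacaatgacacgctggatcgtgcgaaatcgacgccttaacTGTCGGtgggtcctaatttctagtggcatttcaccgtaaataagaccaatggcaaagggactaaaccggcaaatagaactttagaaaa
XTH20: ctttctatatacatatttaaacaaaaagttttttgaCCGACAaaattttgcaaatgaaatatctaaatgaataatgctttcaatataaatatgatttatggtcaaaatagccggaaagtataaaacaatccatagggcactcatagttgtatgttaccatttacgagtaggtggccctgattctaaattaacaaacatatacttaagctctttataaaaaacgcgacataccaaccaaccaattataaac
EXPA7: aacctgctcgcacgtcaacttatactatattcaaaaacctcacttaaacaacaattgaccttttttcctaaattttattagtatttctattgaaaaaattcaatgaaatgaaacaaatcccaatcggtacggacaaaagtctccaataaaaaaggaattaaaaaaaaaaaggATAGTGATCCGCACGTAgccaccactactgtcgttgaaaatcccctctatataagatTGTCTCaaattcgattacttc
EXPA18: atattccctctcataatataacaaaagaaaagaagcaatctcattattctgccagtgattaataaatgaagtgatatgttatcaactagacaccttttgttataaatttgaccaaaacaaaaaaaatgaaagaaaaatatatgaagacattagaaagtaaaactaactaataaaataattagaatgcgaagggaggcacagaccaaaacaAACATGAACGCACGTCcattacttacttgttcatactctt

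In the DMSO roots at 24 h, the highest levels per kb of exon were those of EXPA4 (324 CPM per kb), XTH31 (286), EXPB3 (275), XTH22 (200.4), XTH7 (199), EXPA15 (199) and XTH9 (154), followed by EXLA3 with 79.9. In the DMSO roots at 4 h, XTH22 led with 333 CPM per kb, followed by XTH31 (198), EXLA3 (161), EXPB3 (141) and EXPA4 (134). The remaining tested members ranged down to 0.259 CPM per kb for XTH26 at 24 h. Of the 47 members, 37 were called in at least 1 of the 8 comparisons between groups. The heat map of fold changes shows where the calls fall by family.

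**Figure D1:**
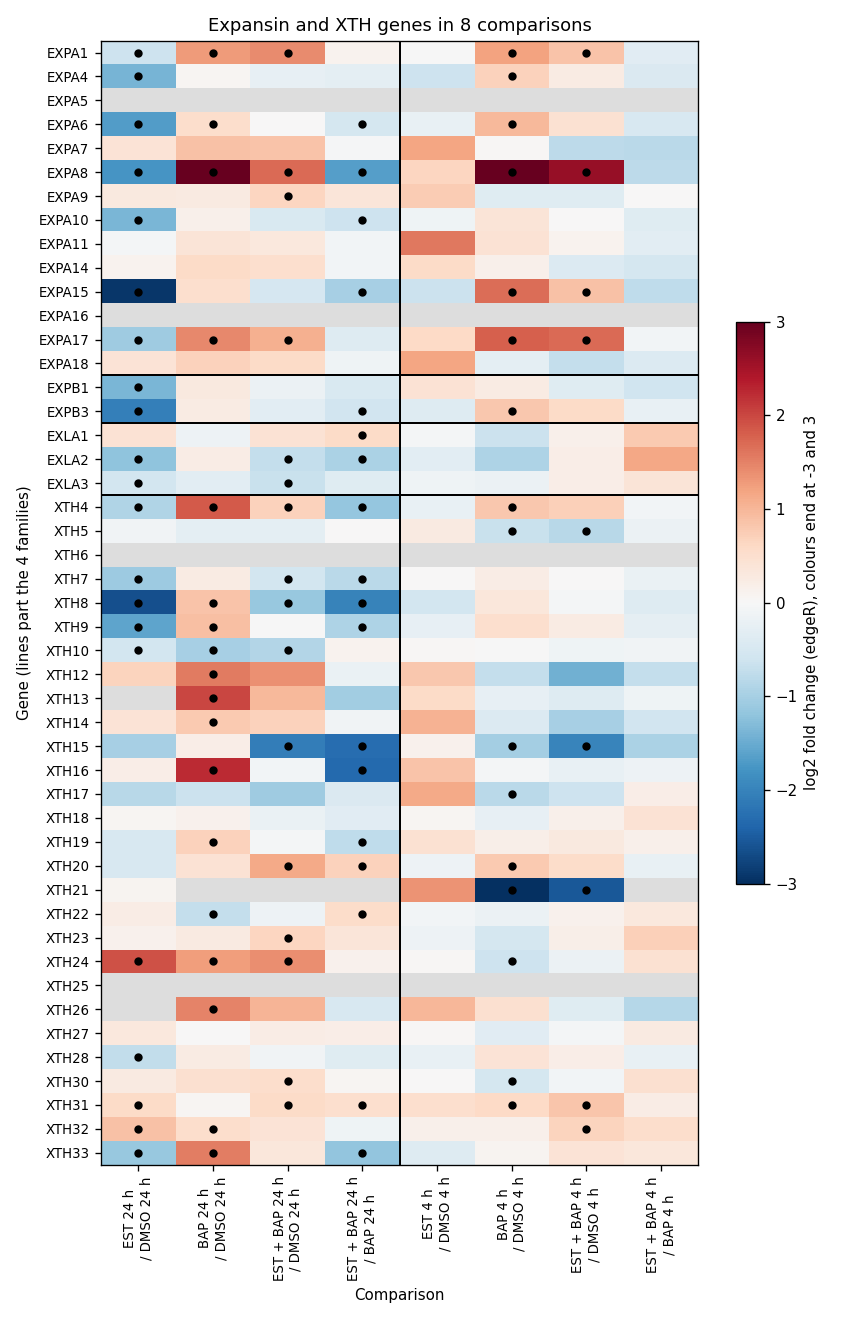
Log2 fold changes (colour, from -3 to 3) of the 47 genes (one line each, in their 4 families) in 4 comparisons at 24 h and 4 at 4 h. Black points mark called genes and grey cells genes below the low-count filter. The first column, EST against DMSO at 24 h, holds 18 of its 21 calls on the lower side, and the second, BAP against DMSO, 16 of its 18 calls on the higher side.

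Expansin transcripts were scarcer after 24 h of EST. Summed over the 14 alpha-expansins, the 3 EST libraries had 314 to 369 CPM against 949.8 to 1059 CPM in DMSO, and the beta-expansins 119.9 to 159 CPM against 519 to 616 CPM. The summed XTHs overlapped between these groups (1457 to 1559 CPM in EST, 1383 to 1644 CPM in DMSO). Of the 41 members tested in EST against DMSO at 24 h, 18 were called lower, while 8.96% of all genes tested were, and 3 were called higher, while 6.26% of all genes were. The median log2 fold change was -0.48 over the members and 0.01 over all genes. The calls took in 7 of 12 alpha-expansins, both beta-expansins, 2 of 3 expansin-like A genes and 7 of 24 XTHs on the lower side, and 3 XTHs on the higher. Along with these genes, all 4 cambium markers were called lower (ANT -2.58, WOX4 -0.95, PXY -0.83, LBD4 -1.41), and so were 3 of 4 phloem markers. The cambium markers summed to 111 to 116 CPM in EST and 256 to 316 CPM in DMSO. Their part in the change of the wall genes was not tested.

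EXPA15 fell furthest. At 24 h EXPA15 (AT2G03090) had 204, 202 and 203 CPM in EST + BAP, 24.2, 47.4 and 42.1 CPM in EST, 384, 392 and 457 CPM in BAP and 264, 278 and 314 CPM in DMSO. The EST libraries lay far below all others, and the log2 fold change of EST against DMSO was -2.91 ± 0.22, edgeR adjusted p = 7.04e-05. EXPB3 (AT4G28250), the more abundant beta-expansin, had 479.5, 459 and 448 CPM in EST + BAP, 136, 119 and 159 CPM in EST, 708, 638 and 739.5 CPM in BAP and 615, 517 and 590.1 CPM in DMSO. Again the EST libraries were apart from the other 9, with a fold change of -2.05 ± 0.13, edgeR adjusted p = 2.83e-05. EXPB1 (AT2G20750) was rare, with 0.81, 0.59 and 0.672 CPM in EST and 1.38, 2.34 and 1.5 CPM in DMSO (-1.38 ± 0.29, edgeR adjusted p = 0.00881).

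EXPA4 (AT2G39700) had 421, 424 and 387 CPM in EST + BAP, 168, 182 and 199.8 CPM in EST, 518, 490.4 and 529.7 CPM in BAP and 532, 447 and 477 CPM in DMSO. It had the highest level per kb of the DMSO roots at 24 h, and its EST libraries were the lowest of the 12 (-1.40 ± 0.11, edgeR adjusted p = 6.97e-05). EXPA6 (AT2G28950), which has an auxin element near its start, had 115, 124 and 119 CPM in EST + BAP, 38.6, 34.4 and 37.2 CPM in EST, 159, 167 and 193 CPM in BAP and 115, 102 and 137 CPM in DMSO. No EST library overlapped another group (-1.68 ± 0.12, edgeR adjusted p = 4.84e-05). EXPA10 (AT1G26770), which promotes leaf growth, had 19, 20.7 and 18.6 CPM in EST + BAP, 7.12, 10.9 and 12.9 CPM in EST, 31.4, 26.6 and 32.7 CPM in BAP and 20.3, 21.9 and 36 CPM in DMSO. Its EST libraries were lower than those of DMSO, where replicate 3 was the highest (-1.37 ± 0.25, edgeR adjusted p = 0.00514).

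EXPA17 (AT4G01630), which acts in lateral root emergence downstream of LBD18, had 37.6, 34.9 and 34.7 CPM in EST + BAP, 7.46, 6.52 and 10.3 CPM in EST, 50.5, 42.7 and 47.9 CPM in BAP and 17.5, 13.1 and 20.6 CPM in DMSO. It fell with EST (-1.07 ± 0.20, edgeR adjusted p = 0.00564). Both groups with BAP were above DMSO. EXPA8 (AT2G40610) had 9.26, 9.45 and 8.22 CPM in EST + BAP, 0.726, 0.852 and 0.772 CPM in EST, 24.8, 33.6 and 27 CPM in BAP and 1.38, 1.7 and 4.54 CPM in DMSO. Its EST libraries were the lowest (-1.78 ± 0.42, edgeR adjusted p = 0.0159), but the call rested on DMSO replicate 3, and without it the log2 fold change was -1.02 with an edgeR adjusted p of 0.0548. EXPA1 (AT1G69530), expressed in many growing organs, had 194, 178 and 182 CPM in EST + BAP, 47, 38.7 and 49.7 CPM in EST, 176, 173 and 169.6 CPM in BAP and 79.8, 69.6 and 59.7 CPM in DMSO. The EST libraries were below the DMSO libraries by a smaller step (-0.62 ± 0.13, edgeR adjusted p = 0.0085).

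**Figure D2:**
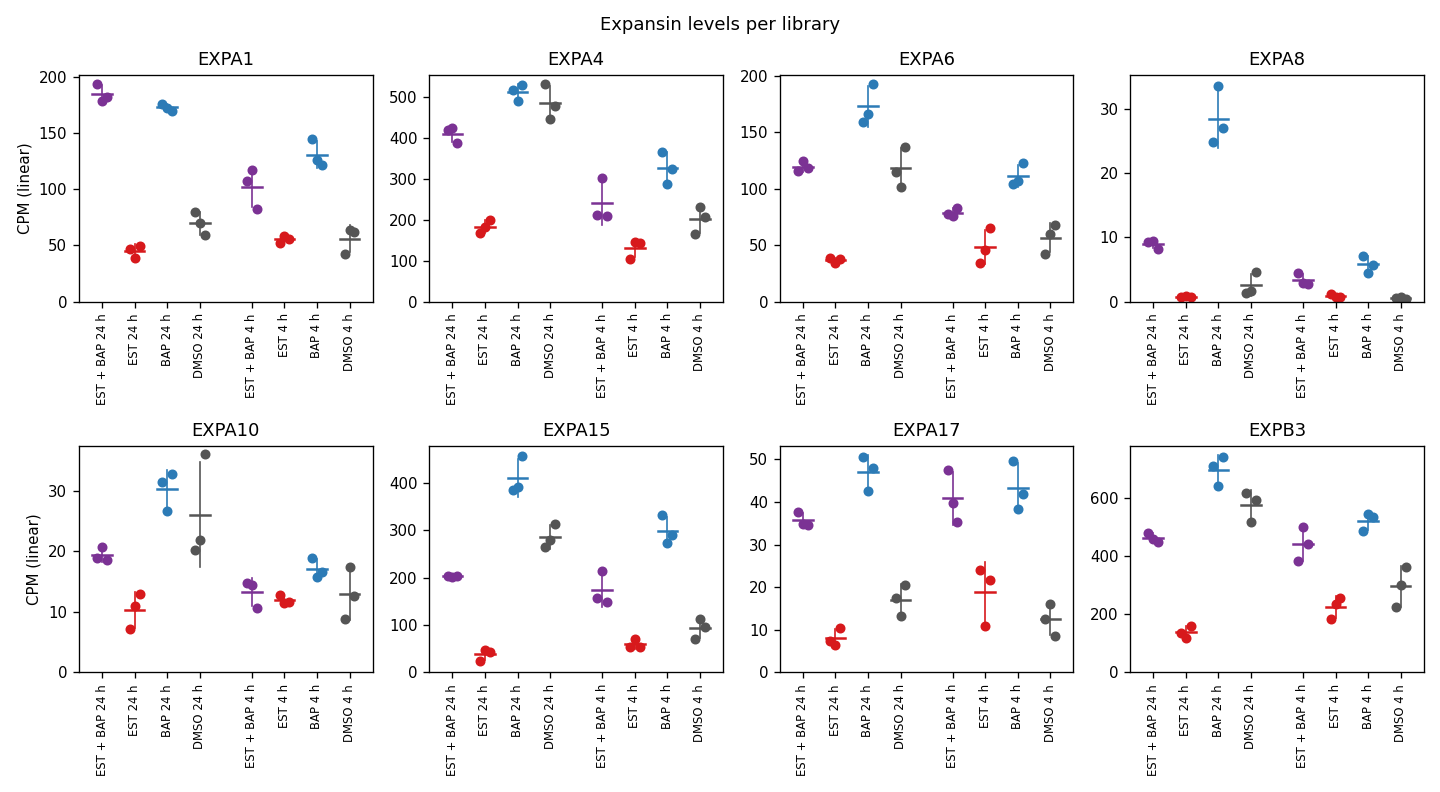
CPM (linear axis from 0) of 8 expansins in each library, with 24 h on the left and 4 h on the right. Points are libraries, horizontal lines means and vertical lines SD of 3 libraries. The EST 24 h libraries are the lowest of the 24 h groups in all 8 panels, and EXPA1, EXPA8 and EXPA17 are higher in both BAP-treated groups than in DMSO.

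Among the XTHs, XTH8 and XTH9 fell furthest with EST at 24 h and XTH24 and XTH32 were higher. XTH8 (AT1G11545) had 11.5, 10 and 11.3 CPM in EST + BAP, 4.24, 3.18 and 4 CPM in EST, 36.7, 46.3 and 49.9 CPM in BAP and 19.3, 25.5 and 25.8 CPM in DMSO. All 4 groups were separate, EST being the lowest (-2.64 ± 0.15, edgeR adjusted p = 1.8e-05). XTH9 (AT4G03210), known from secondary growth in stems together with XTH4, had 229.9, 194 and 277 CPM in EST + BAP, 105, 65.2 and 64 CPM in EST, 436, 422 and 480.4 CPM in BAP and 274, 188 and 244 CPM in DMSO. Its EST libraries lay below every other library (-1.59 ± 0.21, edgeR adjusted p = 0.000969).

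XTH4 (AT2G06850) had 74.7, 80.4 and 73.3 CPM in EST + BAP, 26.9, 22.9 and 25.9 CPM in EST, 167, 171 and 182 CPM in BAP and 46.7, 44.5 and 50 CPM in DMSO. This gene, too, was in 4 separate groups and fell with EST (-0.90 ± 0.09, edgeR adjusted p = 0.000217). XTH7 (AT4G37800) had 132, 116 and 112 CPM in EST and 255, 230.0 and 285 CPM in DMSO (-1.1 ± 0.11, edgeR adjusted p = 0.000241). XTH33 (AT1G10550), an XTH with a membrane anchor, had 5.49, 5.45 and 4.72 CPM in EST + BAP, 1.81, 1.77 and 2.05 CPM in EST, 9.32, 15 and 12 CPM in BAP and 4.69, 3.08 and 4.9 CPM in DMSO. It fell with EST (-1.14 ± 0.22, edgeR adjusted p = 0.00602). XTH28 (AT1G14720) did too, with 28.9, 28.6 and 30 CPM in EST and 49.9, 47.3 and 49.5 CPM in DMSO (-0.74 ± 0.07, edgeR adjusted p = 0.000187). XTH10 (AT2G14620) was also called lower (log2 fold change -0.54), but not by DESeq2 and not without DMSO replicate 3 or EST replicate 1 or 3 (edgeR adjusted p up to 0.0829).

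On the other side, XTH24 (AT4G30270) had 51.1, 52.3 and 40.9 CPM in EST + BAP, 112, 44.9 and 48.1 CPM in EST, 44.6, 40.1 and 49.1 CPM in BAP and 21.6, 16.6 and 17.4 CPM in DMSO. All EST libraries exceeded all DMSO libraries, EST replicate 1 by far, and the fold change was 1.91 ± 0.34, edgeR adjusted p = 0.00399. Without that replicate the call stood, as it did without any other. XTH32 (AT2G36870), of the subgroup that holds the xyloglucan hydrolases, had 27.8, 35.9 and 34.3 CPM in EST + BAP, 47.8, 44.7 and 44 CPM in EST, 36.3, 35.5 and 37.1 CPM in BAP and 20.7, 26.9 and 25.4 CPM in DMSO. The EST libraries were the highest of the 24 h groups (0.89 ± 0.10, edgeR adjusted p = 0.00046). XTH31 (AT3G44990), its closest relative in function, had 521, 651 and 612 CPM in EST + BAP, 499, 591 and 689 CPM in EST, 402, 409.6 and 455 CPM in BAP and 340.1, 371 and 482 CPM in DMSO. It was called higher in EST (0.57 ± 0.16, edgeR adjusted p = 0.0292), but the call did not stand without DMSO replicate 1 or 2 or EST replicate 2 or 3 (edgeR adjusted p up to 0.09999).

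Among the expansin-like A genes, EXLA2 and EXLA3 were called lower. EXLA2 (AT4G38400) had 4.2, 3.77 and 3.89 CPM in EST + BAP, 2.96, 2.66 and 2.72 CPM in EST, 6.39, 8.02 and 8.63 CPM in BAP and 5.79, 6.23 and 6.97 CPM in DMSO, EST being the lowest group (-1.20 ± 0.14, edgeR adjusted p = 0.000518). EXLA3 (AT3G45960) had 72.7, 70.4 and 80 CPM in EST and 133, 81.7 and 113 CPM in DMSO (-0.55 ± 0.16, edgeR adjusted p = 0.0333), and its call stood only when DMSO replicate 2 was the library left out (edgeR adjusted p up to 0.103 otherwise). EXLA1 (AT3G45970) had 49.7, 41.9 and 44.4 CPM in EST and 46.3, 26.3 and 30.4 CPM in DMSO, which overlap, and was not called.

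**Figure D3:**
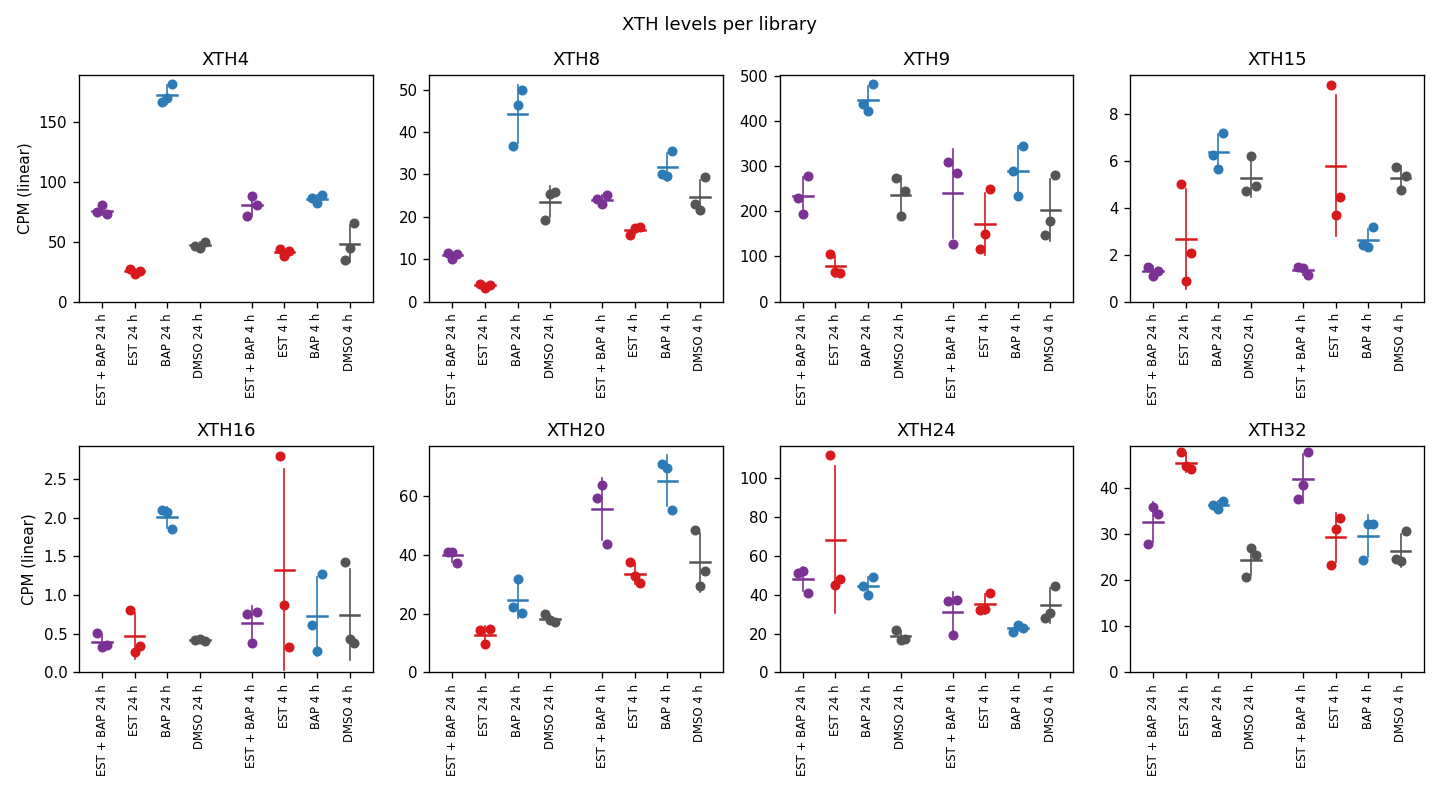
CPM (linear axis from 0) of 8 XTHs in each library, with 24 h on the left and 4 h on the right. Points are libraries, horizontal lines means and vertical lines SD of 3 libraries. XTH8, XTH9 and XTH4 are lowest in EST and highest in BAP at 24 h, whereas XTH24 and XTH32 are higher in EST than in DMSO.

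With BAP, most calls were on the higher side. After 24 h of BAP, 16 of the 42 members tested were called higher than in DMSO, while 17.6% of all genes were, and 2 were called lower, while 17.2% of all genes were. The median log2 fold change was 0.45 over the members and -0.02 over all genes. Alpha-expansins had 4 calls of 12, all higher, and XTHs 12 higher and 2 lower of 25, whereas no beta-expansin or expansin-like A gene was called. Of the alpha-expansins, EXPA8 rose most (3.33 ± 0.32, edgeR adjusted p = 5.08e-05). EXPA17 rose too (1.44 ± 0.16, edgeR adjusted p = 9.34e-05). So did EXPA1 (1.29 ± 0.11, edgeR adjusted p = 2.91e-05) and, by less, EXPA6 (0.52 ± 0.12, edgeR adjusted p = 0.00693). For EXPA8 the BAP libraries had at least 24.8 CPM and the DMSO libraries at most 4.54 CPM, and its log2 fold change was 4.10 without DMSO replicate 3. The call of EXPA6 was lost without DMSO replicate 2 or BAP replicate 3, where its fold change was below 0.5. EXPA4 and EXPB3 did not pass the test (0.05 and 0.25). EXPA15 passed on the p (0.49, edgeR adjusted p = 0.00415) and fell just short of the fold change of 0.5. It was called higher without the low-count filter, by DESeq2, with all 4 groups in one fit, with organelle and ribosomal RNA genes left out, and without DMSO replicate 3 or BAP replicate 1 or 2. In the same comparison 3 of 3 periderm markers were called higher, with a summed level of 1155 to 1231 CPM in BAP and 463 to 708 CPM in DMSO. Of the 4 cambium markers 2 were called higher, at 398 to 486 CPM in BAP and 256 to 316 CPM in DMSO. The photosynthesis genes LHCB1.1, LHCB2.1 and RBCS1A, followed as shoot markers, were all called lower. They summed to 89.3 to 141 CPM in BAP and 268 to 321 CPM in DMSO, in segments cut from roots only. The part of periderm, cambium or green cells in the BAP values was not tested.

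Among the XTHs that rose with BAP at 24 h was XTH4, with a log2 fold change of 1.85 ± 0.08, edgeR adjusted p = 4.04e-06. XTH33 (1.53 ± 0.22, edgeR adjusted p = 0.000518) and XTH24 (1.26 ± 0.12, edgeR adjusted p = 4.88e-05) rose as well. XTH9 (0.90 ± 0.14, edgeR adjusted p = 0.000655) and XTH8 (0.86 ± 0.14, edgeR adjusted p = 0.000889) rose by less. Every BAP library of these 5 genes lay above every DMSO library. XTH16 (AT3G23730) was rare, with 0.51, 0.333 and 0.35 CPM in EST + BAP, 0.81, 0.262 and 0.336 CPM in EST, 2.09, 2.08 and 1.85 CPM in BAP and 0.413, 0.425 and 0.405 CPM in DMSO. It was high in BAP alone (2.23 ± 0.26, edgeR adjusted p = 0.000129). XTH19 (AT4G30290) had 8.95, 6.1 and 5.11 CPM in EST + BAP, 6.23, 3.8 and 4.9 CPM in EST, 12.4, 11.2 and 10.8 CPM in BAP and 6.2, 8.35 and 6.08 CPM in DMSO. It rose less (0.68 ± 0.15, edgeR adjusted p = 0.00432). XTH32 rose by a small step (0.53 ± 0.10, edgeR adjusted p = 0.00225) that fell short of 0.5 without DMSO replicate 1.

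The 2 XTHs called lower with BAP at 24 h were XTH10 and XTH22. XTH10 had 3.26, 2.84 and 1.97 CPM in EST + BAP, 3.46, 3.61 and 3.19 CPM in EST, 2.62, 2.33 and 2.73 CPM in BAP and 5.37, 4.67 and 5.06 CPM in DMSO. Every library of the 3 treatments was lower than those of DMSO (-0.99 ± 0.16, edgeR adjusted p = 0.000755 for BAP). XTH22 (AT5G57560), also called TOUCH4 for its induction by touch, had 314, 306 and 248 CPM in EST + BAP, 381, 372 and 363 CPM in EST, 252, 157 and 187 CPM in BAP and 394, 262 and 301 CPM in DMSO. Its BAP libraries were below those of EST and DMSO (-0.71 ± 0.20, edgeR adjusted p = 0.0148), and the call was lost without BAP replicate 2 (edgeR adjusted p = 0.0567) and without BAP replicate 3.

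The other 4 XTHs that were called higher with BAP at 24 h are known from root hairs or the root hair zone, and so are EXPA7 and EXPA18. XTH13 (AT5G57540) had 1.52, 2.16 and 0.682 CPM in BAP and 0.138, 0.46 and 0.324 CPM in DMSO (1.99 ± 0.50, edgeR adjusted p = 0.00892). XTH12 (AT5G57530) had 1.36, 2 and 0.926 CPM in BAP and 0.827, 0.637 and 0.162 CPM in DMSO (1.56 ± 0.50, edgeR adjusted p = 0.0289), a call that was lost without DMSO replicate 3 or BAP replicate 2 (edgeR adjusted p up to 0.108). XTH26 (AT4G28850) had 0.89, 0.998 and 0.829 CPM in BAP and 0.276, 0.319 and 0.324 CPM in DMSO (1.48 ± 0.31, edgeR adjusted p = 0.00355). All 3 stayed near or below 2 CPM in these groups. XTH14 (AT4G25820) was more abundant, with 9.53, 8.56 and 6.53 CPM in BAP and 5.79, 5.13 and 3.61 CPM in DMSO (0.78 ± 0.21, edgeR adjusted p = 0.0117), a call that was lost with all 4 groups of the time in one fit (edgeR adjusted p = 0.0509). In these 4 genes BAP and DMSO did not overlap. EXPA7 (AT1G12560) had 3.66, 2.79 and 1.61 CPM in BAP and 1.24, 1.73 and 1.18 CPM in DMSO, which overlap. EXPA18 (AT1G62980) had 2.57, 2.7 and 1.46 CPM in BAP and 1.65, 1.81 and 0.729 CPM in DMSO, which overlap too. Neither was called, but both were called higher when replicate numbers entered as a block, which makes 18 calls on the higher side. EXPA7 was also called higher with size factors, without the low-count filter and by edgeR's exact test. The same held for EXPA7 with organelle and ribosomal RNA genes left out and without BAP replicate 3. Of the 7 root hair markers, 3 were called higher with BAP (PRP1 2.05, PRP3 1.71, PER73 1.25) and RHD6 lower (-0.95), with a summed level of 16.7 to 28.4 CPM in BAP against 11.4 to 16.2 CPM in DMSO.

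With both compounds for 24 h, 10 of the 42 members tested were called higher than in DMSO, while 10.4% of all genes were, and 6 lower, while 10% of all genes were. EXPA8 rose most (1.69 ± 0.32, edgeR adjusted p = 0.00299), followed by EXPA1 (1.41 ± 0.11, edgeR adjusted p = 2.12e-05) and EXPA17 (1.07 ± 0.15, edgeR adjusted p = 0.000502). Without DMSO replicate 3 the fold change of EXPA8 was 2.47. Their EST + BAP libraries lay above all EST and DMSO libraries. EXPA9 (AT5G02260) was called higher too, with 14.6, 11.2 and 9.79 CPM in EST + BAP and 7.86, 8.67 and 6.28 CPM in DMSO (0.64 ± 0.18, edgeR adjusted p = 0.0209). This call was lost without DMSO replicate 3 or EST + BAP replicate 1 (edgeR adjusted p up to 0.0879). EXPA4, EXPA6, EXPA10, EXPA15 and EXPB3, all called lower with EST alone, were not called here, with log2 fold changes of -0.24, 0.01, -0.45, -0.497 and -0.32. Of these, EXPA15 and EXPB3 passed on the edgeR adjusted p (0.00316 and 0.0383) but not on the fold change of 0.5, and EXPA15 was called lower without DMSO replicate 1 or 2 or EST + BAP replicate 1. EXPA10 was called lower without DMSO replicate 1. EXLA2 (-0.71 ± 0.13, edgeR adjusted p = 0.00294) and EXLA3 (-0.67 ± 0.17, edgeR adjusted p = 0.0133) were lower in EST + BAP than in DMSO. The call of EXLA3 was lost without EST + BAP replicate 3 (edgeR adjusted p = 0.0555). All 3 periderm markers were called higher here too, at 989.9 to 1219.8 CPM in EST + BAP and 463 to 708 CPM in DMSO, and their part was not tested.

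Of the XTHs, XTH24 rose most with EST + BAP at 24 h (1.40 ± 0.13, edgeR adjusted p = 4.56e-05). XTH20 (AT5G48070), of a group of root XTHs, had 41, 41 and 37.3 CPM in EST + BAP, 14.3, 9.61 and 14.6 CPM in EST, 22.2, 31.8 and 20.2 CPM in BAP and 19.8, 17.6 and 17 CPM in DMSO. It was higher in the EST + BAP libraries than in any other of that time (1.14 ± 0.09, edgeR adjusted p = 1.82e-05). XTH4 (0.69 ± 0.08, edgeR adjusted p = 0.000206) and XTH31 (0.57 ± 0.14, edgeR adjusted p = 0.0138) were called higher by smaller steps. XTH23 (AT4G25810) had 86.9, 80.1 and 67.6 CPM in EST + BAP and 64.1, 41.5 and 45.9 CPM in DMSO (0.65 ± 0.16, edgeR adjusted p = 0.011). XTH30 (AT1G32170) had 34.8, 34.8 and 27.2 CPM in EST + BAP and 25.2, 20.2 and 22.3 CPM in DMSO (0.53 ± 0.12, edgeR adjusted p = 0.00797). In both the groups did not overlap. The call of XTH31 was lost without DMSO replicate 1 or 2 or EST + BAP replicate 2, and that of XTH30 without DMSO replicate 2 or EST + BAP replicate 1 or 2. XTH15 (AT4G14130) fell furthest, with 1.49, 1.09 and 1.31 CPM in EST + BAP, 5, 0.885 and 2.08 CPM in EST, 6.23, 5.65 and 7.17 CPM in BAP and 4.69, 6.2 and 4.9 CPM in DMSO. EST + BAP was below BAP and DMSO, while EST ran from 0.885 CPM into the range of DMSO (-2.07 ± 0.20, edgeR adjusted p = 6.44e-05 for EST + BAP against DMSO). XTH8 (-1.14 ± 0.12, edgeR adjusted p = 0.000108) and XTH10 (-0.88 ± 0.19, edgeR adjusted p = 0.00696) were lower too. XTH7 was called lower (-0.56 ± 0.10, edgeR adjusted p = 0.00272), short of 0.5 without DMSO replicate 3. When replicate numbers entered as a block, XTH12 and XTH14 were called higher in addition, 12 calls in all on that side. XTH14 was also called higher without the low-count filter and without EST + BAP replicate 3.

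EST in the presence of BAP was compared with BAP alone, in libraries other than those of EST and DMSO. At 24 h, 14 of 42 members were called lower in EST + BAP than in BAP, while 11.8% of all genes were, and 4 higher, while 11.6% of all genes were. The median log2 fold change was -0.35 over the members and 0.01 over all genes. EXPA8 fell most among the expansins (-1.65 ± 0.12, edgeR adjusted p = 4.43e-05), followed by EXPA15 (-1.0 ± 0.08, edgeR adjusted p = 6.83e-05) and EXLA2 (-0.95 ± 0.14, edgeR adjusted p = 0.00102). EXPA10 (-0.62 ± 0.09, edgeR adjusted p = 0.00121) and EXPB3 (-0.57 ± 0.08, edgeR adjusted p = 0.000772) fell by less. EXPA6 was called lower (-0.52 ± 0.08, edgeR adjusted p = 0.00159) but came out short of 0.5 without BAP replicate 3 or EST + BAP replicate 1. EXPA1 did not pass the test here (0.11). EXPA4 (-0.30, edgeR adjusted p = 0.00973) and EXPA17 (-0.38, 0.00681) passed on the p but fell short of the log2 fold change of 0.5.

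XTH16 (-2.33 ± 0.26, edgeR adjusted p = 0.000252) and XTH15 (-2.29 ± 0.18, edgeR adjusted p = 5.47e-05) had the largest falls from BAP among the XTHs, followed by XTH8 (-2.0 ± 0.12, edgeR adjusted p = 2.13e-05). XTH33 (-1.19 ± 0.17, edgeR adjusted p = 0.000875) and XTH4 (-1.17 ± 0.07, edgeR adjusted p = 1.87e-05) fell by about the same amount. XTH9 (-0.92 ± 0.13, edgeR adjusted p = 0.000732) and XTH7 (-0.81 ± 0.11, edgeR adjusted p = 0.000594) fell by less. The call of XTH19 (-0.75 ± 0.19, edgeR adjusted p = 0.0126) was lost without EST + BAP replicate 2 (edgeR adjusted p = 0.0535). XTH20 was higher (0.70 ± 0.15, edgeR adjusted p = 0.00673). XTH22 was called higher (0.56 ± 0.17, edgeR adjusted p = 0.0289) with overlapping groups, and not without BAP replicate 2 or 3 or EST + BAP replicate 1 or 2 (edgeR adjusted p up to 0.0965). XTH31 (0.51 ± 0.10, edgeR adjusted p = 0.00336) came out short of 0.5 without BAP replicate 1 or 2 or EST + BAP replicate 2 or 3. EXLA1 (0.58 ± 0.13, edgeR adjusted p = 0.00726) came out short of 0.5 without EST + BAP replicate 1. Of the 4 cambium markers 3 were called lower in this comparison also (ANT -1.31, LBD4 -1.03, WOX4 -0.54), while PXY (-0.28) was not called. Of the xylem markers 5 of 7 were called higher, as were 2 of 3 periderm markers. Of the 4 phloem markers 2 were called lower and 1 higher. The part of these cell types in the values was not tested.

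Whether EST acted alike with and without BAP was tested as the EST by BAP interaction at 24 h, which was called in 9 of 43 members and in 1.4% of all genes. In 5 of them the call stood with each of the 12 libraries left out in turn. EXPA15 had a term of 1.91 ± 0.26, edgeR adjusted p = 0.00654 and EXPB3 a term of 1.48 ± 0.15, edgeR adjusted p = 0.00219. EXPA6 had a term of 1.16 ± 0.15, edgeR adjusted p = 0.0053 and EXPA4 a term of 1.1 ± 0.13, edgeR adjusted p = 0.0028. In these 4 expansins EST lowered the level by more without BAP than with it. XTH32 had a term of -1.02 ± 0.14, edgeR adjusted p = 0.00809, with EST against DMSO at 0.89 and EST + BAP against BAP at -0.13. The other terms each rested on most single libraries, the edgeR adjusted p reaching 0.0721 to 0.109 without one. XTH20 (1.18 ± 0.24, edgeR adjusted p = 0.0335) stood only without EST replicate 1 or 3 or BAP replicate 2. EXPA1 (0.73 ± 0.15, edgeR adjusted p = 0.0362) stood only without DMSO replicate 3 or EST replicate 3. XTH16 (-2.54 ± 0.54, edgeR adjusted p = 0.0401) stood only without EST replicate 2, and XTH24 (-1.79 ± 0.40, edgeR adjusted p = 0.0466) only without any one of the EST libraries. For XTH8, XTH4, XTH33 and EXPA8, which fell with EST in either setting, the interaction did not pass the test (0.64, -0.27, -0.07 and 0.17).

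**Figure D4:**
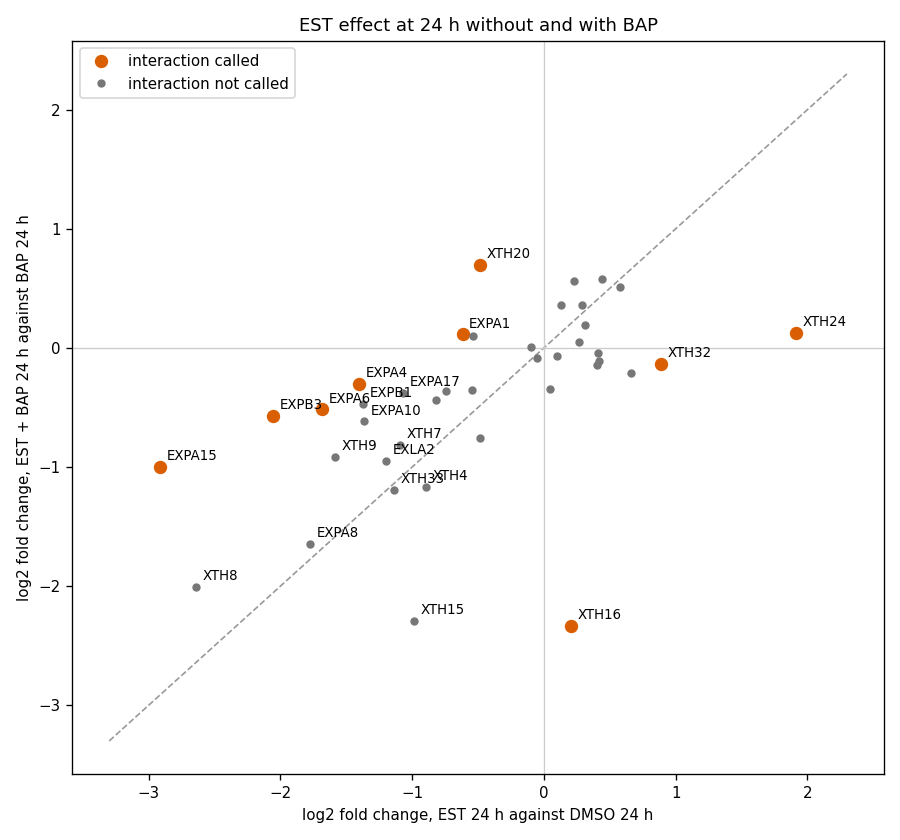
Log2 fold change of EST against DMSO (x) and of EST + BAP against BAP (y) at 24 h for the members tested in both. The dashed line marks equal changes, orange points the 9 genes with a called EST by BAP interaction. EXPA15, EXPB3, EXPA6 and EXPA4 lie above the line, at -1.0, -0.57, -0.52 and -0.30 with BAP against -2.91, -2.05, -1.68 and -1.40 without it.

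At 4 h, BAP already changed 16 of the 43 members tested. It raised 10, while 9.64% of all genes were called higher, and lowered 6, while 7.14% of all genes were called lower. The alpha-expansins had 6 calls of 12, all higher, and their summed level was 869 to 1051 CPM in BAP against 379.6 to 523 CPM in DMSO. EXPA8 had 4.51, 2.89 and 2.66 CPM in EST + BAP, 1.1, 0.662 and 0.731 CPM in EST, 7.14, 4.51 and 5.68 CPM in BAP and 0.505, 0.755 and 0.322 CPM in DMSO. It was higher in both BAP-treated groups (3.40 ± 0.31, edgeR adjusted p = 0.000725 for BAP against DMSO). EXPA17 had 47.6, 39.9 and 35.3 CPM in EST + BAP, 24.1, 10.8 and 21.6 CPM in EST, 49.7, 38.4 and 41.8 CPM in BAP and 12.5, 16.1 and 8.65 CPM in DMSO. The same 2 groups were above EST and DMSO (1.78 ± 0.21, edgeR adjusted p = 0.00156). EXPA15 had 157, 215 and 148 CPM in EST + BAP, 52.4, 71.2 and 54.2 CPM in EST, 331, 272 and 291 CPM in BAP and 71, 112 and 96.2 CPM in DMSO. Its BAP libraries were above all others (1.67 ± 0.17, edgeR adjusted p = 0.00088). In the same comparison, 2 of 4 cambium markers were called higher, with a summed level of 265 to 292 CPM in BAP and 143 to 201 CPM in DMSO. Of the 3 periderm markers 2 were called higher, at 690.5 to 776 CPM in BAP and 358 to 464 CPM in DMSO. Their part in the BAP values was not tested.

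EXPA1 had 107, 117 and 82.3 CPM in EST + BAP, 52.5, 58.7 and 55.5 CPM in EST, 145, 126 and 122 CPM in BAP and 42.3, 64.1 and 62 CPM in DMSO, with BAP the highest group (1.21 ± 0.16, edgeR adjusted p = 0.00214). EXPA6 had 77.6, 75.7 and 83.2 CPM in EST + BAP, 34.1, 46 and 64.7 CPM in EST, 104, 107 and 123 CPM in BAP and 42.2, 59.6 and 67.7 CPM in DMSO. Its BAP libraries, too, were above all others (0.96 ± 0.16, edgeR adjusted p = 0.00481). EXPA4 had 210.4, 301 and 208 CPM in EST + BAP, 105, 145 and 143 CPM in EST, 366, 288 and 325 CPM in BAP and 164, 231 and 207 CPM in DMSO. BAP was above DMSO, with EST + BAP replicate 2 in its range (0.69 ± 0.15, edgeR adjusted p = 0.0125). EXPB3 had 384, 499 and 439 CPM in EST + BAP, 183, 235 and 255 CPM in EST, 486, 545 and 533 CPM in BAP and 224, 299 and 363 CPM in DMSO. BAP was again above DMSO and overlapped EST + BAP (0.81 ± 0.17, edgeR adjusted p = 0.0107).

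Fewer XTHs rose with BAP at 4 h. XTH4 had 71.4, 88.7 and 81.2 CPM in EST + BAP, 44.3, 38.3 and 42 CPM in EST, 86.7, 82.8 and 88.8 CPM in BAP and 35.1, 44.6 and 65.6 CPM in DMSO. Both groups with BAP were above the others (0.82 ± 0.20, edgeR adjusted p = 0.0191), but the call was lost without DMSO replicate 2 or BAP replicate 1 or 3 (edgeR adjusted p up to 0.0708). XTH20 had 59.3, 63.8 and 43.7 CPM in EST + BAP, 37.5, 32.9 and 30.3 CPM in EST, 71, 69.4 and 55.1 CPM in BAP and 48.6, 29.2 and 34.4 CPM in DMSO. BAP did not overlap DMSO (0.79 ± 0.19, edgeR adjusted p = 0.0211), and this call was lost without DMSO replicate 2 or 3 or BAP replicate 1 or 2 (edgeR adjusted p up to 0.0758). XTH31 had 463, 496 and 522 CPM in EST + BAP, 320.3, 386 and 459.6 CPM in EST, 380.2, 408 and 479 CPM in BAP and 286, 257 and 285 CPM in DMSO. Every library of the 3 treatments was above those of DMSO (0.60 ± 0.11, edgeR adjusted p = 0.00807).

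On the lower side were XTH21 and XTH15. XTH21 (AT2G18800), which supports root growth, had 0.331, 0.154 and 0.112 CPM in EST + BAP, 5.8, 2.05 and 0.76 CPM in EST, 0.144, 0 and 0.138 CPM in BAP and 1.93, 0.959 and 0.528 CPM in DMSO. The BAP libraries held 7, 0 and 4 counts and the DMSO libraries 65, 47 and 18 counts (-3.46 ± 0.73, edgeR adjusted p = 0.012). Both groups with BAP were below all other libraries. At 24 h XTH21 had 0.0392, 0 and 0 CPM in EST + BAP, 1.79, 0.23 and 1.18 CPM in EST, 0.0524, 0.125 and 0.0487 CPM in BAP and 0.689, 1.06 and 1.13 CPM in DMSO. The groups with BAP were again the lowest. At these counts XTH21 did not pass the low-count filter in either comparison with DMSO, but it was called lower in both without that filter, by DESeq2, with all 4 groups of the time in one fit and with organelle and ribosomal RNA genes left out. XTH15 had 1.47, 1.43 and 1.12 CPM in EST + BAP, 9.22, 3.67 and 4.44 CPM in EST, 2.4, 2.34 and 3.16 CPM in BAP and 5.73, 4.73 and 5.34 CPM in DMSO. Both BAP-treated groups were below the other two (-1.02 ± 0.16, edgeR adjusted p = 0.0043). XTH5 (AT5G13870) (-0.66 ± 0.14, edgeR adjusted p = 0.0127) had 2.59, 2.55 and 2.51 CPM in BAP and 4.36, 3.98 and 3.64 CPM in DMSO. XTH17 (AT1G65310) (-0.80), XTH24 (-0.62) and XTH30 (-0.54) were called lower by edgeR but not where all 4 groups of the time shared a fit. XTH17 stood only without DMSO replicate 3 (edgeR adjusted p up to 0.1199 otherwise). XTH24 was lost without DMSO replicate 3 or any BAP library (up to 0.102 by edgeR), and XTH30 without DMSO replicate 3 or BAP replicate 2 or 3 (up to 0.0741).

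With EST + BAP at 4 h, 6 of the 43 members tested were called higher than in DMSO, while 6.38% of all genes were, and 3 lower, while 4.65% of all genes were. EXPA8 (2.61 ± 0.35, edgeR adjusted p = 0.00489), EXPA17 (1.70 ± 0.22, edgeR adjusted p = 0.00456) and XTH31 (0.82 ± 0.10, edgeR adjusted p = 0.00358) rose. XTH15 fell (-1.98 ± 0.17, edgeR adjusted p = 0.00172). These 4 calls stood with each library left out in turn. EXPA15 rose (0.88 ± 0.20, edgeR adjusted p = 0.0242), but not without DMSO replicate 3 (edgeR adjusted p = 0.0549). EXPA1 rose (0.85 ± 0.19, edgeR adjusted p = 0.0228), but not without DMSO replicate 2 or EST + BAP replicate 1 or 2 (edgeR adjusted p up to 0.0668). XTH32 had 37.7, 40.6 and 47.8 CPM in EST + BAP, 23.4, 31.1 and 33.5 CPM in EST, 24.3, 32.1 and 32.2 CPM in BAP and 24.5, 24.1 and 30.6 CPM in DMSO. EST + BAP was above the other groups (0.66 ± 0.12, edgeR adjusted p = 0.0139). This call and that of XTH5 (-0.84 ± 0.17, edgeR adjusted p = 0.0161) were lost without DMSO replicate 2 (edgeR adjusted p = 0.0627 and 0.0634). XTH21 was called lower (-2.53 ± 0.61, edgeR adjusted p = 0.0301), but not without DMSO replicate 1 or 2 or EST + BAP replicate 2 or 3 (edgeR adjusted p up to 0.105). When replicate numbers entered as a block, EXPB3 and XTH4 were called higher in addition, which makes 8 on that side. Both were also called higher by DESeq2, by edgeR's exact test, with all 4 groups in one fit and without DMSO replicate 3. XTH4 was called higher without the low-count filter as well.

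EST alone called no member at 4 h by edgeR's quasi-likelihood test, by its exact test or by DESeq2. The quasi-likelihood test called 0.00927% of all genes higher and 0.00464% lower. By that test 4 of 43 members were at an unadjusted p under 0.05, while 2.56% of all genes were. When replicate numbers entered as a block, 14 of 43 were at an unadjusted p under 0.05 by the quasi-likelihood test, and still none was called. The log2 fold change of EXPA4 was -0.62, with EST libraries (105, 145 and 143 CPM) below those of DMSO (164, 231 and 207 CPM), and that of EXPA15 was -0.65, with 52.4, 71.2 and 54.2 CPM in EST and 71, 112 and 96.2 CPM in DMSO. Neither passed the test. EST + BAP against BAP also gave no call among 42 members, while 0.19% of all genes were called higher and 0.144% lower. There 16 members were at an unadjusted p under 0.05 by the quasi-likelihood test, while 12.8% of all genes were. The smallest edgeR adjusted p of a member was 0.0709. DESeq2 and edgeR's exact test called EXLA1, EXLA2, XTH23 and XTH32 higher and EXPA15 and XTH15 lower there. Of all 29074 genes DESeq2 called 253 higher and 142 lower, and of 21530 the exact test called 250 higher and 174 lower. Without EST + BAP replicate 2, the quasi-likelihood test called 3 members higher and 1 lower, and of all 21646 genes 159 higher and 86 lower. The EST by BAP interaction at 4 h was called in 0% of all genes and in no member, and DESeq2 called none of the members. Of the 43 members 4 were at an unadjusted p under 0.05 by the quasi-likelihood test, while 4.07% of all genes were.

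The effects at the 2 times were compared through their own DMSO groups, the 24 h and 4 h experiments being separate. The EST effect differed with time in 7 of 43 members, and in 5.18% of all genes. XTH8 had a term of -2.10 ± 0.21, edgeR adjusted p = 0.000662 (24 h minus 4 h). EXPA15 had a term of -2.27 ± 0.33, edgeR adjusted p = 0.00384 and EXPB3 a term of -1.66 ± 0.25, edgeR adjusted p = 0.00488. All 3 lay on the side of a deeper fall at 24 h and stood with any library left out. From 4 h to 24 h, the mean of EXPA15 went from 93 to 285 CPM in DMSO and from 59.3 to 37.9 CPM in EST. That of EXPB3 went from 295 to 574 CPM in DMSO and from 224 to 138 CPM in EST. That of EXPA6 went from 56.5 to 118 CPM in DMSO and from 48.3 to 36.7 CPM in EST. That of EXPA8 went from 0.527 to 2.54 CPM in DMSO and from 0.831 to 0.784 CPM in EST. The terms of EXPA15, EXPB3, EXPA6 and EXPA8 therefore include the higher DMSO levels at 24 h. For XTH24 the DMSO level was lower at 24 h (15.3 CPM per kb) than at 4 h (28.5 CPM per kb), which its term includes. At 4 h XTH8 had 15.8, 17.4 and 17.7 CPM in EST and 23.1, 21.6 and 29.3 CPM in DMSO. The term of EXPA6 (-1.45 ± 0.31, edgeR adjusted p = 0.0219) was lost without DMSO 24 h replicate 3 or EST 24 h replicate 2 or 3 (edgeR adjusted p up to 0.0691). That of EXPA17 (-1.67 ± 0.44, edgeR adjusted p = 0.0485) stood only without DMSO 4 h replicate 2 or EST 4 h replicate 2 (up to 0.145 otherwise). That of EXPA8 (-2.38 ± 0.63, edgeR adjusted p = 0.0498) stood only without DMSO 24 h replicate 1 or 2 (up to 0.132 otherwise). The terms of EXPA17 and EXPA8 were also lost with size factors in place of TMM, with the replicate block and without organelle and ribosomal RNA genes. XTH24 had 36.7, 19 and 37.2 CPM in EST + BAP, 32, 32.5 and 41.1 CPM in EST, 21, 24.2 and 22.8 CPM in BAP and 28.2, 30.6 and 44.7 CPM in DMSO at 4 h, where EST and DMSO overlapped. Its term (1.88 ± 0.44, edgeR adjusted p = 0.0326) was lost without DMSO 4 h replicate 2 or 3, EST 4 h replicate 1 or 2 or DMSO 24 h replicate 2 or 3 (edgeR adjusted p up to 0.0974).

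The BAP effect differed with time in 6 of 43 members, and in 6.82% of all genes. XTH24 was higher with BAP at 24 h and lower at 4 h, a term of 1.90 ± 0.23, edgeR adjusted p = 0.00113. XTH30 had log2 fold changes of 0.47 at 24 h and -0.54 at 4 h (1.03 ± 0.17, edgeR adjusted p = 0.00562). At 4 h XTH30 had 54.2, 41.2 and 46.2 CPM in EST + BAP, 57, 56.4 and 35.5 CPM in EST, 37.6, 35 and 29.7 CPM in BAP and 43.8, 45.6 and 58 CPM in DMSO, and the BAP libraries were below those of DMSO. XTH15 had log2 fold changes of 0.21 at 24 h and -1.02 at 4 h (1.25 ± 0.23, edgeR adjusted p = 0.00782). XTH4 rose more at 24 h (1.05 ± 0.23, edgeR adjusted p = 0.0208), a term that was lost without BAP 4 h replicate 2, DMSO 24 h replicate 2 or BAP 24 h replicate 3 (edgeR adjusted p up to 0.0602). EXPA15 had 0.49 at 24 h, which was not called, and 1.67 at 4 h (-1.15 ± 0.21, edgeR adjusted p = 0.00821). From 4 h to 24 h its mean went from 93 to 285 CPM in DMSO and from 298 to 411 CPM in BAP. In DMSO, XTH24 went from 28.5 to 15.3 CPM per kb and XTH30 from 35.1 to 16.1. The terms of EXPA15, XTH24 and XTH30 therefore include changed DMSO levels. XTH4 (30.0 and 29.1 CPM per kb) and XTH15 (4.36 at both times) were level in DMSO. XTH10 fell with BAP at 24 h, and its 4 h libraries all lay between 3.63 and 5.08 CPM (-0.97 ± 0.21, edgeR adjusted p = 0.0177).

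Rare members known from root hairs varied widely within groups at 4 h. EXPA7 had 1.68, 2.28 and 0.448 CPM in EST + BAP, 12.4, 3.52 and 1.17 CPM in EST, 3.8, 1.92 and 1.96 CPM in BAP and 4.96, 1.96 and 0.674 CPM in DMSO. EXPA18 had 1.95, 2.02 and 0.672 CPM in EST + BAP, 12.5, 3.28 and 1.26 CPM in EST, 2.65, 1.36 and 2.1 CPM in BAP and 4.72, 1.73 and 1.08 CPM in DMSO. In both, EST replicate 1 and DMSO replicate 1 were the highest of the 12. EXPA14 (AT5G56320), another target of LBD18 in lateral roots, had 12.6, 4.21 and 1.49 CPM in EST and 7.18, 3.43 and 1.88 CPM in DMSO. XTH14 had 28.6, 7.7 and 4.09 CPM in EST and 11, 5.84 and 2.78 CPM in DMSO. The same 2 libraries led in these genes. EXPA11 (AT1G20190) had 8.44, 2.59 and 0.906 CPM in EST and 2.34, 0.98 and 0.704 CPM in DMSO, again with EST replicate 1 on top. The sum of EXPA7, EXPA18, XTH12, XTH13, XTH14 and XTH26 was 60.7 CPM in EST replicate 1 and 24.2 CPM in DMSO replicate 1, and 3.86 to 16.5 CPM in the other 10 libraries of 4 h. The 7 root hair markers summed to 76.6 CPM and 38.1 CPM in these 2 libraries and to 5.85 to 21.3 CPM in the other 10, none of the 7 being at 0 in any library. The 5 endodermis markers summed to 67.3 CPM and 32.6 CPM there and to at most 29.3 CPM in the other 10. The part of such cells in the values of these genes was not tested, and none of the genes was called at 4 h.

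**Figure D5:**
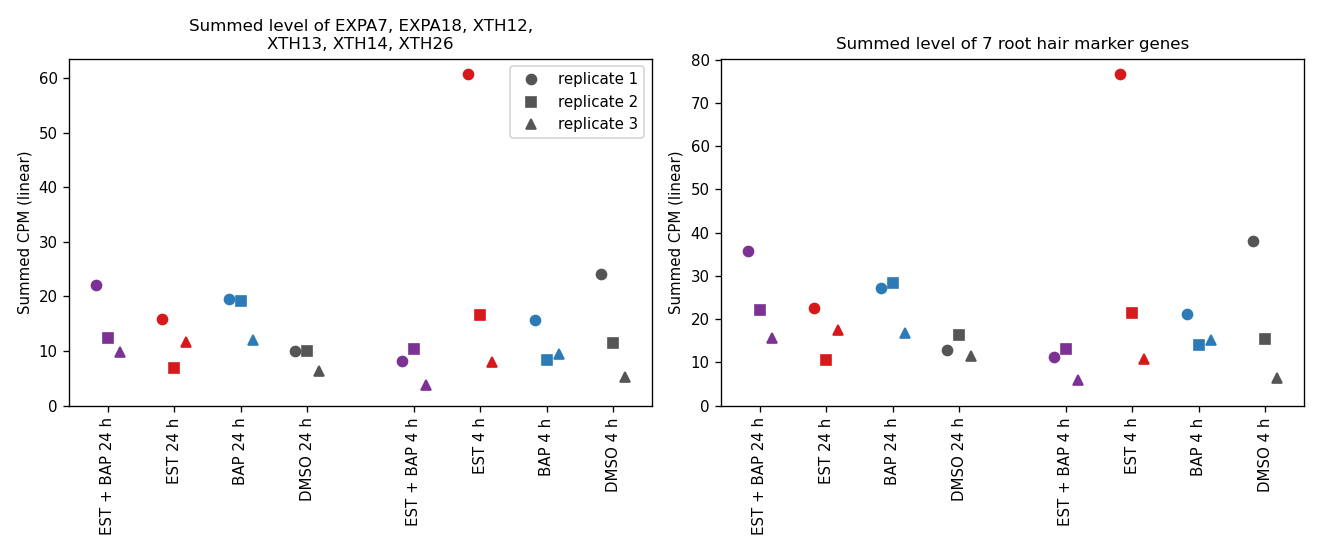
Summed CPM (linear axes from 0) of 6 members known from root hairs (left) and of 7 root hair marker genes (right), 1 point per library and 1 symbol per replicate number, with 24 h on the left and 4 h on the right of each panel. EST 4 h replicate 1 is the highest library in both panels (60.7 and 76.6 CPM).

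The remaining members were XTH18 (AT4G30280) and XTH27 (AT2G01850), which were tested in each comparison and called in none. XTH27 ranged between 27.8 and 50.4 CPM over the 24 libraries. XTH18 had 25.2, 17 and 17.1 CPM in EST + BAP, 24.5, 21 and 24.9 CPM in EST, 30.3, 21.5 and 24.5 CPM in BAP and 29.6, 20.6 and 19.8 CPM in DMSO at 24 h. It had 107, 74.9 and 97.5 CPM in EST + BAP, 99.5, 85.8 and 72.4 CPM in EST, 63, 85.9 and 60.4 CPM in BAP and 59.3, 95.5 and 92.5 CPM in DMSO at 4 h. All 12 libraries of 4 h were above the 12 of 24 h, whatever the treatment. In DMSO the relative XTH23 of the touch gene XTH22 had 64.1, 41.5 and 45.9 CPM at 24 h and 105, 131 and 255 CPM at 4 h. EXLA1 had 46.3, 26.3 and 30.4 CPM at 24 h and 93.2, 89 and 184 CPM at 4 h. EXLA3 had 133, 81.7 and 113 CPM at 24 h and 168, 192 and 302 CPM at 4 h. In these 3 genes the times did not overlap. XTH22 itself had 394, 262 and 301 CPM at 24 h and 348, 538 and 701 CPM at 4 h, which overlap. The summed alpha- and beta-expansins went the other way in DMSO. Alpha-expansins had 949.8 to 1059 CPM at 24 h and 379.6 to 523 CPM at 4 h. Beta-expansins had 519 to 616 CPM at 24 h and 226 to 364 CPM at 4 h. The times were not tested against each other, since they are separate experiments.

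Some members are neighbours on a chromosome. XTH24, XTH18 and XTH19 follow each other on chromosome 4, with 5161 and 1500 bases between them and no other protein-coding gene. Their log2 fold changes with EST at 24 h were 1.91, 0.05 and -0.48. XTH23 and XTH14, 363 bases apart on the same chromosome, had 0.28 and 0.78 with BAP at 24 h. EXLA3 and EXLA1, 2012 bases apart on chromosome 3, had -0.55 and 0.44 with EST at 24 h.

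Beyond these 47 genes, 16 genes of xyloglucan synthesis and trimming were followed. All 16 had a log2 fold change below 0 in EST against DMSO at 24 h, and 4 were called lower (8.96% of all genes), with a median of -0.42. Among them was the xylosyltransferase gene XXT2 (58.2 ± 2.81 CPM against 88.4 ± 2.62 CPM, -0.60, mean ± SD of 3 EST and 3 DMSO libraries). The glucan synthase gene CSLC5 (22.8 ± 1.01 CPM against 38.7 ± 5.24 CPM, -0.78) and the alpha-xylosidase gene XYL1 (129 ± 10.3 CPM against 199 ± 7.89 CPM, -0.63) fell too. With BAP at 24 h, 3 were called higher (17.6% of all genes) and CSLC4 lower (-0.94, 17.2% of all genes). Those higher included the trimming enzymes BGAL10 (43.4 ± 5.33 CPM against 14.6 ± 1.75 CPM in DMSO, 1.56) and AXY8 (72.5 ± 3.69 CPM against 38.7 ± 2.31 CPM in DMSO, 0.88). Of 8 genes of primary wall cellulose synthesis, CESA5 alone was called with EST at 24 h (-0.75, lower in 8.96% of all genes) and all 8 were below 0. Of 11 plasma membrane proton pumps, which acidify the wall, none was called with EST at 24 h. BAP at 24 h gave 1 pump called higher (17.6% of all genes) and 2 lower (17.2% of all genes). AHA2, the main pump of roots, was among those lower (449 ± 70.8 CPM against 1289 ± 82.8 CPM, -1.55). Of the 21 expansins and XTHs outside the list, 7 passed the filter. With EST at 24 h EXPA3 (-1.89) and EXPA13 (-0.86) were lower (8.96% of all genes) and XTH11 (0.80) higher (6.26% of all genes). BAP at 24 h gave 1 call lower, EXLB1 (-2.56, 17.2% of all genes), and 3 higher (17.6% of all genes), EXPB2 (2.19) among them.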

How the data were processed

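RNA of main root segments was measured in 24 libraries. The authors depleted ribosomal RNA, made strand-specific libraries, trimmed reads with Trimmomatic 0.36, quantified them with Kallisto 0.43.0 on the AtRTD2 transcripts and deposited the unnormalized estimated counts of 34212 genes, rounded to whole numbers. Total counts ran from 14514022 to 45586679 per library, so the spread between libraries, which the study's methods give as repeats of the experiment, sets the precision. Groups came from the sample titles.

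Genes were tested with the quasi-likelihood test of edgeR 4.0.16 (R 4.3.3), after TMM scaling and filterByExpr (minimum count 10), on the 6 libraries of each pair and the 12 of each interaction, with Benjamini-Hochberg adjustment over all genes tested. CPM levels used TMM over all 24 libraries. The test was tried on simulated counts. Members and gene lists were chosen with earlier results of these data known. Per-library values are given for members called in an interaction and, per comparison, family and direction, for up to 6 called members without overlap and a mean of 10 or more counts in their higher group. Of the context lists, up to 3 called genes with the smallest adjusted p are named, and others named, markers included, were chosen after their values were seen. Alternatives were size factors, DESeq2 1.42.0, edgeR's exact test, no filter, a shared fit of the 4 groups at a time, the replicate number as a block, omission of organelle and ribosomal RNA genes, a log2 cutoff of 0.05 and each library left out. Positions, lengths and promoters are those of RefSeq's TAIR10.1, to which 33437 genes and all 47 members were matched, and copies were searched with blastn 2.17.0.

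Replicate numbers were checked as pairings by the correlation of same-numbered deviations from group means. It was over 0.1 in each pair for EST + BAP with DMSO (0.117 to 0.404) and with BAP (0.221 to 0.365) at 4 h and for BAP (0.118 to 0.2397) and EST + BAP (0.102 to 0.139) with DMSO at 24 h, a pairing seen in the counts only. Elsewhere at least 1 number was below 0.1, which does not exclude a pairing. For EST with DMSO at 4 h the values were 0.572, -0.053 and 0.474.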

Additional observations from a re-analysis of the deposited data

Results flagged for a closer look

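Effects of EST that differed with BAP at 24 h by the interaction term were those of EXPA15 (1.91), EXPB3 (1.48), EXPA6 (1.16), EXPA4 (1.1), EXPA1 (0.73), XTH20 (1.18), XTH32 (-1.02), XTH24 (-1.79) and XTH16 (-2.54). A positive term means that EST changed the gene more upwards, or less downwards, in the presence of BAP.

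Effects of EST that differed between 24 h and 4 h were those of XTH8 (-2.10), EXPA15 (-2.27), EXPA8 (-2.38), EXPA17 (-1.67), EXPB3 (-1.66), EXPA6 (-1.45) and XTH24 (1.88). Effects of BAP that differed between 24 h and 4 h were those of XTH24 (1.90), XTH15 (1.25), XTH4 (1.05), XTH30 (1.03), XTH10 (-0.97) and EXPA15 (-1.15). All are log2 differences with an edgeR adjusted p of at most 0.05, and the times are separate experiments.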

How the results depend on the processing

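Depth limits the rarest members, as the counts given for XTH21 show. No call changed direction under any alternative, and 155 of the values of called members under an alternative no longer passed the test, while 1591 did. In BAP against DMSO at 4 h, 6 members were called lower, 3 with all 4 groups in one fit and 3 to 6 with libraries left out. In EST + BAP against DMSO at 4 h the 3 called lower were 1 to 4 with libraries left out. In EST + BAP against BAP at 4 h, DESeq2 and the exact test each called 4 higher and 2 lower, no filter gave 1 lower, and leaving out libraries gave 0 to 3 higher and 0 to 1 lower, against none in either direction. In EST + BAP against BAP at 24 h the 4 called higher were 2 to 3 with libraries left out. Of the EST by BAP interactions at 24 h, the 3 negative terms were 1 to 3 with libraries left out. Of the EST by time interactions, the single positive term became 2 under size factors, DESeq2, the replicate block and without organelle and ribosomal RNA genes, and 0 to 2 with libraries left out. The 6 negative terms became 11 under DESeq2, 10 under the block and 3 to 8 with libraries left out. Of the BAP by time interactions, DESeq2 gave 4 negative terms for 2 and the block 8 positive terms for 4. The cause was not tested. In pairs of groups where at least 1 correlation was below 0.1, a pairing is neither seen nor excluded. There the block changed the calls of XTH17 and XTH9 in BAP against DMSO at 4 h. It also added XTH20 in EST against DMSO at 24 h. In the pairs of groups with every correlation over 0.1 the block added the calls named in the report and took none away.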
